A study of Homo sapiens with 9 samples.

Results

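SBNO1, ZFX and LIN54 encode nuclear proteins that regulate transcription. Their mRNAs were higher in RNA pulled down with the netrin receptor DCC than with the semaphorin receptor neuropilin-1 (Nrp1). By fold change LIN54 (rank 57) and ZFX (rank 162) stood near the top of the 3695 genes higher with DCC, and SBNO1 (rank 684) further down. These genes are 3 of the 42785 counted, each found by its symbol as 1 row of every library. They were selected on the difference between DCC-IP and Nrp1-IP in these same libraries, so that difference is a description here and carries no test. RNA came from SH-SY5Y cells, an established human neuroblastoma line, and no treatment is named for any group. It was precipitated with a mouse antibody to DCC (DCC-IP), precipitated with a rabbit antibody to Nrp1 (Nrp1-IP), or taken from the whole lysate (Input), with 3 libraries in each group. Nuclei and unlysed cells had been spun out of the lysate and the cDNA was amplified by a single-cell method. The paper states independent biological replicates for its experiments in general, but the labels do not tie the 3 libraries of a group to separate cultures, so p-values measure the spread between these libraries, which may be technical. IgG pulldowns are not analysed here, though the paper reports that RNA came down with DCC and Nrp1 and not with IgG. The 2 antibodies come from different host species, so receptor, antibody and bead cannot be told apart in these libraries.

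SBNO1 is a human counterpart of the fly strawberry notch protein, a helicase-family nuclear factor known for its part in Notch signalling. ZFX is an X-linked zinc finger transcription factor that binds near the start sites of many genes and is known for its role in the self-renewal of stem cells. LIN54 is the DNA-binding subunit of MuvB, a core complex that joins RB-family and E2F proteins in the repressor DREAM when cells are quiescent, and joins B-MYB and FOXM1 on mitotic genes when they divide. It reads the CHR element, a short sequence in the promoters of cell cycle genes. DCC and Nrp1 are axon guidance receptors, and mRNAs can be bound to such receptors together with ribosomes and RNA-binding proteins.

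The start-site windows of LIN54 and ZFX are shown because each holds the letters that LIN54 itself reads. Windows ran from 250 bases before to 50 bases after the start that RefSeq gives in GRCh38.p14, a newer build than the hg19 used for the counts. The CHR letters TTTGAA, or TTCAAA on the other strand, are in capitals. LIN54 (chr4:83010774-83011073, minus strand) had them 100 bases before the start, and ZFX (chrX:24148732-24149031, plus strand) had them on the opposite strand, 76 bases before the start. The window of another RefSeq start of LIN54 (chr4:83010785-83011084, sequence not shown) had them 89 bases before that start.
LIN54: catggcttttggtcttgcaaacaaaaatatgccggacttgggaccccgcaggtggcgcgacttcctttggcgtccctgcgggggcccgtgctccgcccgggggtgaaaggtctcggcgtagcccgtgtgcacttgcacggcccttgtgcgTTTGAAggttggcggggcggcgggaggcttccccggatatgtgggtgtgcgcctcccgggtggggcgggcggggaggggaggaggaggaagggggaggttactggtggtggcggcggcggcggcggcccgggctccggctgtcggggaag
ZFX: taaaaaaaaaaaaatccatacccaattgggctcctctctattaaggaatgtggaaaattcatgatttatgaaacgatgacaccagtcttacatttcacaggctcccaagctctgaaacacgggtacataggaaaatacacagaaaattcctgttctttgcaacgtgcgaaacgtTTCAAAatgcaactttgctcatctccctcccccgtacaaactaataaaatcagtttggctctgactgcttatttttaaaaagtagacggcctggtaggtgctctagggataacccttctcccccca
The window of SBNO1 (chr12:123364798-123365097, minus strand) did not hold these letters. They occurred in 5324 of 35116 RefSeq windows of this length (15.2%), so a match in single genes is a description and not a binding site. AGGCCT, the core of the motif known for ZFX, occurred in 3826 windows (10.9%) and in none of the windows of SBNO1, ZFX and LIN54.

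Each library held between 8838296 and 11055895 reads on genes, with 6652 to 12240 genes detected, and a count of 3, taken as the detection floor, equals 0.271 to 0.339 CPM, the counts of a gene scaled to a common library total. This floor covers counting error only. MAP1B, which encodes a microtubule-associated protein of neurons, took 40.34 to 52.11% of all gene counts in DCC-IP and 1.579 to 2.44% in the other libraries. Values are therefore given with and without MAP1B in the library size. Of 12 markers of noradrenergic neuroblastoma cells, 7 were over the floor in every Input library, and TH, the enzyme that starts catecholamine synthesis, had 0 counts in all 9 libraries. Of 11 mesenchymal and glial markers, 8 were at 0 in all Input libraries and 9 in all DCC-IP libraries. The noradrenergic markers summed to 202 to 287 CPM in DCC-IP, 104 to 193 in Input and 152 to 173 in Nrp1-IP, and their part in the results for SBNO1, ZFX and LIN54 was not tested.

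All 3 genes were well covered, with at least 597 counts in every library. The DCC-IP libraries numbered 1, 2 and 3 gave SBNO1 counts of 117768, 148284 and 104763. Its Input counts were 42886, 41640 and 22039, and its Nrp1-IP counts 35103, 31179 and 35933. Every DCC-IP library was above every Nrp1-IP and Input library, while Nrp1-IP and Input overlapped. After TMM normalization over the 9 libraries (trimmed mean of M values, a scaling set by genes without extreme ratios) the level was 10810 ± 3172 CPM in DCC-IP, 4422 ± 1459 in Input and 2950 ± 300.6 in Nrp1-IP (SD, n = 3). CPM is a share of a library, so that more of 1 mRNA and less of the others cannot be told apart.

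ZFX counts were 31408, 67071 and 57443 for DCC-IP, 7936, 7237 and 4990 in Input, and 7072, 6130 and 6044 in Nrp1-IP. Its level was 4297 ± 951.4 CPM in DCC-IP, 837.9 ± 199.5 in Input and 559.8 ± 103.9 in Nrp1-IP (TMM, SD, n = 3). The order of the groups was that of SBNO1, with DCC-IP apart from the others and Nrp1-IP overlapping Input on the TMM scale.

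LIN54 had the fewest counts of the 3 in every library. Its counts were 8523, 4392 and 16118 for DCC-IP, 1061, 919 and 2013 in Input, and 597, 635 and 908 in Nrp1-IP. Its level was 809.8 ± 404 CPM in DCC-IP, 166.5 ± 76.15 in Input and 60.82 ± 6.486 in Nrp1-IP (TMM, SD, n = 3). Unlike the other genes, LIN54 kept its 3 groups apart, with every Nrp1-IP library below every Input library. In DCC-IP and Input it also varied most of the 3 between libraries, with a coefficient of variation of 49.9% in DCC-IP and 45.7% in Input against 10.7% in Nrp1-IP. The spread of SBNO1 was 29.3% in DCC-IP, 33% in Input and 10.2% in Nrp1-IP, and that of ZFX was 22.1, 23.8 and 18.6%. Gene lengths were not used, so levels are not compared between the genes.

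**Figure D1:**
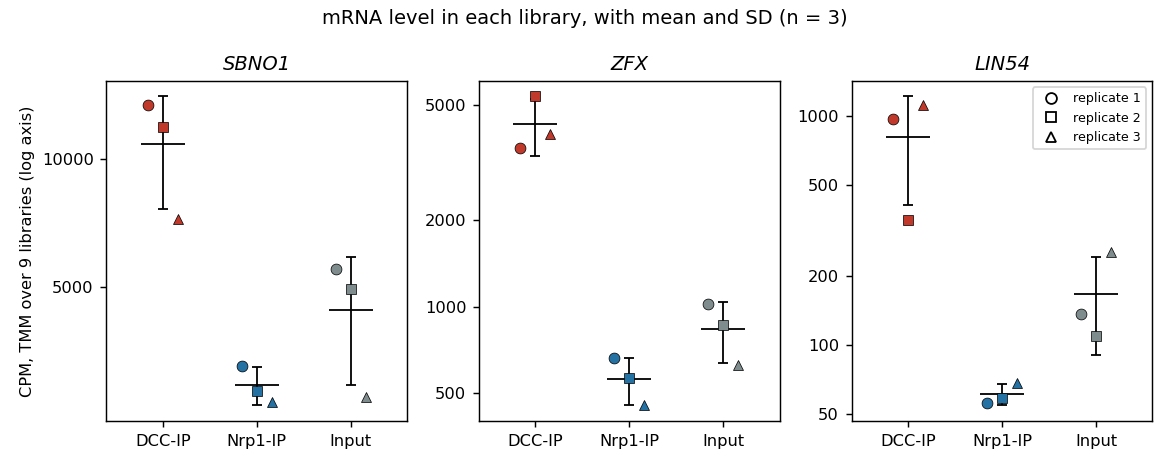
CPM after TMM normalization over 9 libraries (log axis) of SBNO1, ZFX and LIN54 in DCC-IP, Nrp1-IP and Input. Symbols are libraries by replicate number, and bars are the mean and SD (n = 3). The DCC-IP libraries sit above all others in each panel, from 7242 to 13320 CPM for SBNO1, 3551 to 5368 for ZFX and 351.5 to 1114 for LIN54.

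The replicate numbers carried a pattern of their own. On the TMM scale the libraries numbered 3 held the lowest SBNO1 level of their group in DCC-IP (7242 CPM), Nrp1-IP (2697 CPM) and Input (2770 CPM). By library size alone this did not hold in Nrp1-IP, where replicate 2 was lowest (3100 CPM against 3285 for replicate 3). The same libraries held the highest LIN54 level of their group, at 1114 CPM in DCC-IP, 253 in Input and 68.15 in Nrp1-IP. For ZFX the library numbered 3 was lowest in Nrp1-IP (453.6 CPM) and Input (627.1 CPM) but not in DCC-IP, where replicate 1 was lowest (3551 CPM). Across genes, deviations from the group means correlated between DCC-IP and Input libraries of the same number at 0.117 to 0.421 (Pearson's r, and genes are not independent replicates). For libraries of different number the range was -0.31 to 0.136, which overlaps.

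Between the pulldowns, the contrast that chose them, LIN54 differed most and SBNO1 least. On the TMM scale the ratio of the mean levels, DCC-IP over Nrp1-IP, was 3.66 for SBNO1, 7.68 for ZFX and 13.3 for LIN54. The edgeR fit of these 6 libraries gave log2 fold changes of 2.03 for SBNO1 (SE 0.31), 3.13 for ZFX (SE 0.351) and 3.84 for LIN54 (SE 0.452), where the median of the 6439 genes tested was 0.268. Ordered by fold change among the 3695 genes that were higher in DCC-IP, LIN54 stood at rank 57, ZFX at rank 162 and SBNO1 at rank 684. Across all genes, 1.09% were called higher in DCC-IP than in Nrp1-IP and 10.9% had all 3 DCC-IP libraries above all 3 Nrp1-IP libraries. The genes were chosen by this contrast, so nothing is read from those shares.

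Input libraries had no part in choosing the genes, and each pulldown was compared with them. The choice favoured genes high in DCC-IP and low in Nrp1-IP. The p-values against Input therefore lean in those directions and cannot show which pulldown moved. The DCC-IP and Nrp1-IP libraries in these comparisons are those of the choice, so they are not independent of it, and both comparisons share the Input libraries. ZFX rose against Input, with a log2 fold change of 2.51 (SE 0.362) and an adjusted p of 0.00884 (quasi-likelihood test in edgeR, Benjamini-Hochberg over all genes). LIN54 rose by a log2 fold change of 2.41 (SE 0.551, adjusted p = 0.0435, same edgeR test). SBNO1 rose by 1.39 on the log2 scale (SE 0.33, adjusted p = 0.0496, same edgeR test), just under the threshold of 0.05. In fold terms these were 5.71 for ZFX, 5.31 for LIN54 and 2.62 for SBNO1. ZFX and LIN54 lay closer together than their SEs, and their order turned without DCC-IP replicate 2 (2.57 for ZFX and 3.01 for LIN54) and without Input replicate 3 (2.29 and 2.80). All 3 genes were called higher, where 1.46% of the 6223 genes tested were called higher and 3.52% lower, and all 3 had non-overlapping groups, as did 15.2% of genes. The choice favoured genes high in these DCC-IP libraries, so nothing is read from these shares either.

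SBNO1 and LIN54 passed the test narrowly. In the fit with the replicate number as a block the standard errors were smaller, 0.178 for SBNO1, 0.294 for ZFX and 0.263 for LIN54, and the adjusted p-values from edgeR were 0.00267, 0.00225 and 0.00182. The share of genes called higher was then 3.82% (238 genes against 91 without the block). Without 1 library the call of SBNO1 was lost in 5 of 6 fits and kept without DCC-IP replicate 3, and that of LIN54 was lost in 5 of 6 and kept without Input replicate 3. ZFX lost its call without DCC-IP replicate 1, DCC-IP replicate 2 or Input replicate 1 (edgeR adjusted p = 0.0766, 0.0975 and 0.0605). All log2 fold changes in those fits stayed positive, from 1.09 to 1.95 for SBNO1, 2.29 to 2.81 for ZFX and 2.13 to 3.01 for LIN54.

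Against Input, Nrp1-IP held less of each mRNA on average, and none of these differences passed the edgeR test. LIN54 had a log2 fold change of -1.41 (SE 0.433, adjusted p = 0.106, edgeR), with all 3 Nrp1-IP libraries below all 3 Input libraries. SBNO1 stood at -0.49 (SE 0.287, adjusted p = 0.37, edgeR) and ZFX at -0.50 (SE 0.294, adjusted p = 0.375, edgeR), with groups that overlapped. These sizes depended on the scaling. By library size alone the log2 fold changes were -0.09 for SBNO1, -0.10 for ZFX and -1.01 for LIN54. Of the 3 genes, 0 were called by edgeR, 1 had an unadjusted p under 0.05 and 1 was called by DESeq2, in each case LIN54 (DESeq2 log2 fold change -1.58, adjusted p = 0.0068). Among the 6501 genes tested, 1.94% were called higher and 3.03% lower, and 13.8% had all Nrp1-IP libraries below all Input libraries. SBNO1 was lower with an adjusted p of 0.0368 in edgeR once Input replicate 3, its lowest Input library, was left out.

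**Figure D2:**
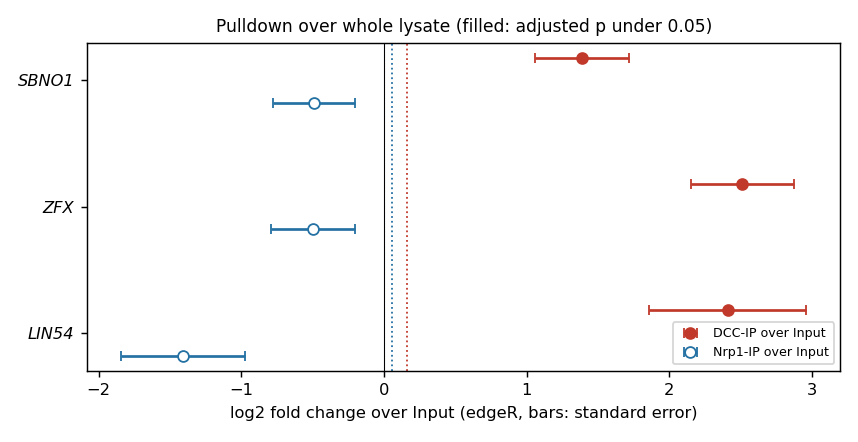
Log2 fold change of SBNO1, ZFX and LIN54 in DCC-IP over Input and in Nrp1-IP over Input, with bars of 1 SE from edgeR (3 libraries a group). The DCC-IP values are positive at 1.39, 2.51 and 2.41, and the Nrp1-IP values are negative at -0.49, -0.50 and -1.41.

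Because MAP1B filled about as many reads as all other genes together in DCC-IP, its place in the library size set the absolute size of every DCC-IP value. With all gene counts as the library size, mean CPM in DCC-IP over Input gave ratios of 3.21 for SBNO1, 7.13 for ZFX and 6.51 for LIN54. With MAP1B taken out of the library size the ratios were 6.08, 13.3 and 11.6, and after TMM normalization they were 2.44, 5.13 and 4.86. The Nrp1-IP over Input ratios hardly depended on MAP1B, at 0.939 and 0.938 for SBNO1, 0.932 and 0.932 for ZFX, and 0.496 and 0.496 for LIN54 with and without it.

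The other genes moved with the scale. The median log2 fold change of all genes in DCC-IP over Input was 0.163 with TMM, 0.478 with library size and 1.36 with library size without MAP1B. Relative to that median, SBNO1 stood at 1.23, 1.21 and 1.24, ZFX at 2.35, 2.36 and 2.38, and LIN54 at 2.25, 2.23 and 2.18. A scaling shifts all genes by nearly the same amount, so this distance could hardly move with it. It did move with the genes tested and with the block: with no filter on low counts it was 1.89 for SBNO1, 2.90 for ZFX and 2.83 for LIN54, and with the replicate block 1.62, 2.68 and 2.53. The calls of SBNO1 and LIN54 depended on the scaling. With TMM computed after MAP1B was removed, the adjusted p from edgeR was 0.072 for SBNO1 and 0.063 for LIN54. With the RLE size factors, taken from median ratios, it was 0.103 and 0.0586.

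**Figure D3:**
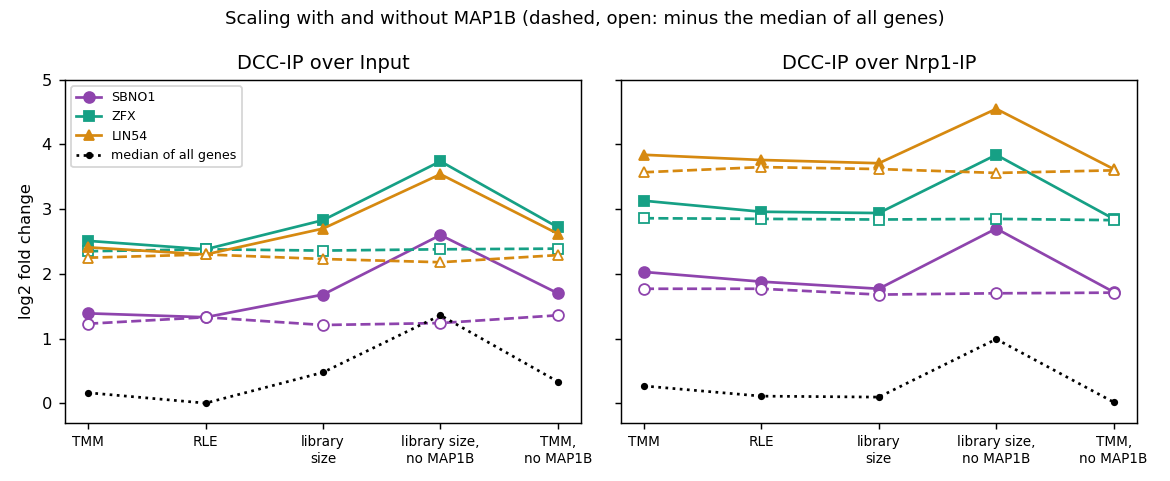
Log2 fold change of SBNO1, ZFX and LIN54 in DCC-IP over Input (left) and DCC-IP over Nrp1-IP (right) under 5 scalings, beside the median of all genes. Dashed lines with open symbols are the values minus that median. In DCC-IP over Input, library size without MAP1B raises the 3 genes to 2.604, 3.736 and 3.54 and the median to 1.36.

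Ratios between 2 genes in the same library do not depend on the library size. SBNO1 counts per ZFX count were 3.75, 2.21 and 1.82 in the DCC-IP libraries, 5.4, 5.75 and 4.42 in Input, and 4.96, 5.09 and 5.95 in Nrp1-IP. The 3 DCC-IP libraries were below all others, so ZFX gained on SBNO1 in DCC-IP under any scaling. SBNO1 counts per LIN54 count were 13.8, 33.8 and 6.5 in DCC-IP, 40.4, 45.3 and 10.9 in Input, and 58.8, 49.1 and 39.6 in Nrp1-IP. All DCC-IP libraries were below all Nrp1-IP libraries, but Input replicate 3 fell among the DCC-IP values. ZFX counts per LIN54 count were 3.69, 15.3 and 3.56 in DCC-IP, 7.48, 7.87 and 2.48 in Input, and 11.8, 9.65 and 6.66 in Nrp1-IP, and these groups overlapped. Both ratios to LIN54 were lowest in the library numbered 3 of each group.

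**Figure D4:**
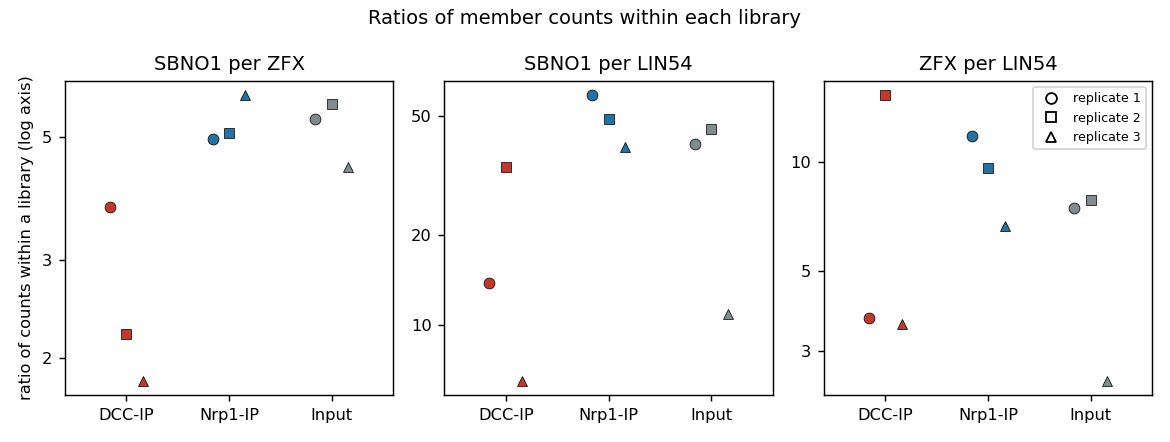
Ratios of the counts of 2 genes within each library (log axis), by group, with symbols for the replicate number. SBNO1 per ZFX is 1.82 to 3.75 in DCC-IP and 4.42 or more elsewhere, while both ratios to LIN54 are lowest in replicate 3 of each group.

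Over the 9 libraries the log2 CPM of SBNO1 and ZFX correlated at Pearson's r = 0.94, that of ZFX and LIN54 at 0.851, and that of SBNO1 and LIN54 at 0.769. All 3 genes were chosen for being high in DCC-IP, so these values were set by the choice. For deviations from the group means, r was 0.6 for SBNO1 and ZFX, -0.797 for ZFX and LIN54, and -0.639 for SBNO1 and LIN54. Pooled over the groups, LIN54 thus tended to be low where the others were high, but not in every library. DCC-IP replicate 1 held the highest SBNO1 level of its group (13320 CPM, TMM). Its LIN54 level of 963.7 CPM was above the group mean of 809.8 CPM.

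The genes whose levels were most like each of the 3, out of 7628 genes that passed the filter on low counts, were taken by the same correlation over 9 libraries, with no test. For SBNO1 these were RNU4-78P, RPL35A and FNIP1, at r of 0.96, 0.96 and 0.957. For ZFX they were UBE2S (0.986), MAP1B (0.977) and FNIP1 (0.956), and for LIN54 they were SOD1 (0.984), NAA38 (0.981) and RPL41 (0.968). FNIP1, which encodes a partner of the tumour suppressor folliculin, was at 3390 ± 348 CPM in DCC-IP, 1220 ± 376 in Input and 536 ± 16.8 in Nrp1-IP (SD, n = 3). Apart from MAP1B the others rested on lower counts, such as UBE2S, a ubiquitin-conjugating enzyme of mitosis, at 12 ± 0.915 CPM in DCC-IP. Ranked by Spearman's rho, 0 of the 3 genes nearest SBNO1 and LIN54 and 1 of the 3 nearest ZFX stayed in place, so these neighbours depend on the measure.

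Of 13 MuvB and DREAM genes, the partners of LIN54, 9 passed the filter in DCC-IP over Input and 0 were called by edgeR (1 had an unadjusted p under 0.05 and 1 was called by DESeq2), with a median log2 fold change of -0.588 against 0.163 for all genes. With 1.46% of all genes called higher and 3.52% lower, a count of 0 among 9 is near the background. RBBP4, the histone-binding subunit of MuvB, was at 367 ± 91.1 CPM in DCC-IP, 1170 ± 132 in Input and 1600 ± 32.4 in Nrp1-IP (SD, n = 3), with a log2 fold change of -1.52 over Input in DCC-IP (SE 0.37, adjusted p = 0.0517, edgeR), and it was picked out after its values were seen. In Nrp1-IP over Input 10 of the 13 were tested and 0 were called by edgeR, 0 had an unadjusted p under 0.05, and 0 were called by DESeq2.

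Of 18 cell cycle genes that DREAM and MuvB control, 12 were tested in DCC-IP over Input, with a median log2 fold change of 0.673. By edgeR 0 were called higher and 1 lower, against 1.46% and 3.52% of all genes, where 3 of the 12 had an unadjusted p under 0.05 and 2 were called by DESeq2. The gene called lower was BIRC5, which encodes the mitotic protein survivin. BIRC5 was at 1330 ± 269 CPM in DCC-IP, 7730 ± 903 in Input and 5350 ± 1370 in Nrp1-IP (SD, n = 3), and it fell by 2.39 on the log2 scale in DCC-IP (SE 0.318, adjusted p = 0.00726, edgeR). TOP2A, the DNA topoisomerase of dividing cells, stood the other way, and it was picked out after its values were seen. It was at 26.1 ± 18.8 CPM in DCC-IP, 2.49 ± 0.573 in Input and 10.9 ± 2.4 in Nrp1-IP (SD, n = 3). Its log2 fold change over Input was 3.41 in DCC-IP (SE 0.859, adjusted p = 0.0575, edgeR). In Nrp1-IP it was 2.19 (SE 0.542, adjusted p = 0.0618, edgeR), so TOP2A missed the threshold in both pulldowns. In Nrp1-IP over Input 11 of the 18 were tested and 0 were called by edgeR, where 3 had an unadjusted p under 0.05 and 2 were called by DESeq2.

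Of 26 Notch pathway genes, 7 were tested in each comparison. In DCC-IP over Input 0 were called by edgeR, 1 had an unadjusted p under 0.05 and 0 were called by DESeq2, and the median log2 fold change was -0.148. In Nrp1-IP over Input edgeR called 1 lower, against 3.03% of all genes, where 4 of the 7 had an unadjusted p under 0.05 and 3 were called by DESeq2, and the median was -1.30. The gene called was ADAM17, the protease that sheds ligands and receptors of the pathway. ADAM17 was at 1430 ± 590 CPM in DCC-IP, 3670 ± 789 in Input and 1410 ± 177 in Nrp1-IP (SD, n = 3). Its log2 fold change was -1.30 in Nrp1-IP (SE 0.257, adjusted p = 0.0337, edgeR) and -1.29 in DCC-IP (SE 0.313, adjusted p = 0.0511, edgeR), and these values differed by less than their SEs.

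Of 16 other zinc finger factors that bind promoters, the class of ZFX, 9 were tested in DCC-IP over Input, with a median log2 fold change of -0.916. By edgeR 0 were called higher and 1 lower, against 1.46% and 3.52% of all genes, where 4 of the 9 had an unadjusted p under 0.05 and 2 were called by DESeq2. The gene called lower was KLF10, a TGF-beta-induced factor (adjusted p = 0.0406, edgeR). KLF10 had 0 counts in all DCC-IP libraries and 89, 111 and 20 in Input, so it passed the filter through its Input counts alone. With 0 counts in DCC-IP it could only be called lower, so nothing is read from this call of KLF10. Its mean Input level of 9.08 CPM was 26.8 times the floor, taken as 3 counts in the smallest DCC-IP library. The Input library with 20 counts lay nearer to that floor. Its Nrp1-IP counts were 53, 0 and 14. In Nrp1-IP over Input 12 were tested and 0 were called by edgeR, where 5 had an unadjusted p under 0.05 and 4 were called by DESeq2.

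Transcription factors of the noradrenergic neuroblastoma state gave the one other nuclear factor called higher in DCC-IP among these lists. ISL1, a LIM homeodomain factor of sympathetic neurons, was at 2470 ± 1400 CPM in DCC-IP, 296 ± 71.4 in Input and 1140 ± 172 in Nrp1-IP (SD, n = 3). Its log2 fold change over Input was 3.10 in DCC-IP (SE 0.424, adjusted p = 0.008, edgeR) and 2.04 in Nrp1-IP (SE 0.266, adjusted p = 0.0119, edgeR), so it was called higher in both pulldowns, whereas SBNO1, ZFX and LIN54 were called higher in DCC-IP and missed the threshold in Nrp1-IP. Whether the genes differ in this respect was not tested. SOX11, SOX4 and TFAP2B, factors of sympathetic and neural progenitors, were called lower in Nrp1-IP, with log2 fold changes of -1.48, -1.68 and -1.63 (edgeR adjusted p = 0.0218, 0.0411 and 0.0414). In DCC-IP over Input they were negative too, at -0.353, -0.728 and -1.33, and missed the threshold (edgeR adjusted p = 0.455, 0.351 and 0.0682). Of the 15 factors listed, 9 were tested in DCC-IP over Input and 8 in Nrp1-IP over Input, with medians of -0.353 and -1.07. In DCC-IP edgeR called 1 higher and 0 lower, against 1.46% and 3.52% of all genes. There 2 had an unadjusted p under 0.05 and 1 was called by DESeq2. In Nrp1-IP edgeR called 1 higher and 3 lower, against 1.94% and 3.03% of all genes. There 4 had an unadjusted p under 0.05 and 4 were called by DESeq2.

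**Figure D5:**
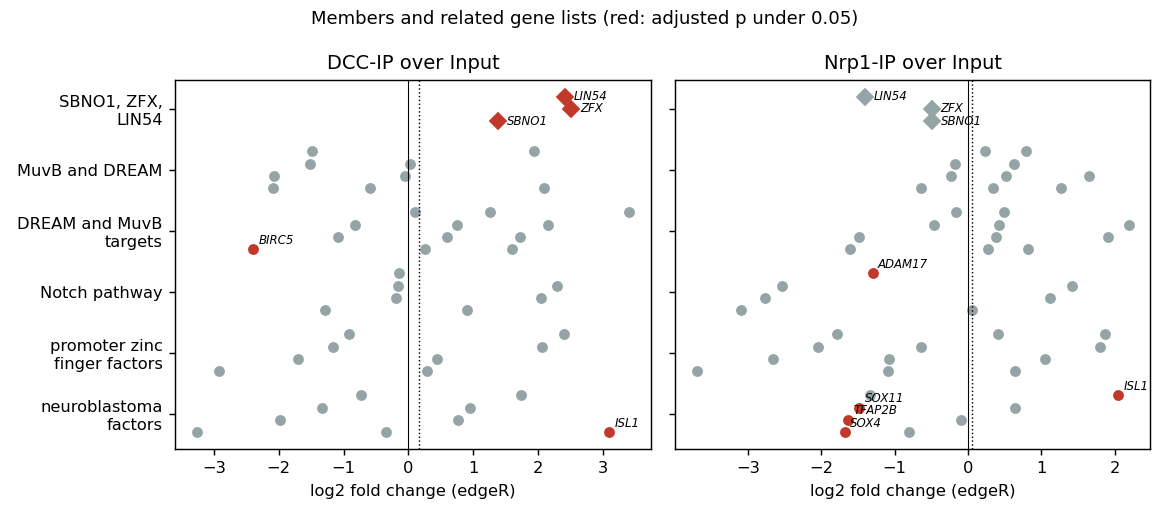
Log2 fold changes over Input in DCC-IP (left) and Nrp1-IP (right) of SBNO1, ZFX and LIN54 (diamonds) and of the tested genes of 5 related lists (circles), red where the edgeR adjusted p is under 0.05, with the median of all genes dotted. KLF10 is left out of the left panel because its DCC-IP libraries are at 0, and the heights within a list only separate the points.

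Of the paralogs of the 3 genes, SBNO2 had 0 counts in all 9 libraries. ZNF711, the close relative of ZFX on the X chromosome, was at 46.7 ± 29.9 CPM in DCC-IP, 12.8 ± 7.69 in Input and 42.4 ± 4.29 in Nrp1-IP (48 to 1000 counts, SD, n = 3), with log2 fold changes over Input of 2.06 (SE 0.816, adjusted p = 0.181, edgeR) and 1.80 (SE 0.53, adjusted p = 0.0955, edgeR). TESMIN, the relative of LIN54, was at 11.9 ± 4.48 CPM in DCC-IP, 18.9 ± 4.13 in Input and 25 ± 6.89 in Nrp1-IP. In DCC-IP over Input 0 of the 2 paralogs tested were called by edgeR, 1 had an unadjusted p under 0.05 and 0 were called by DESeq2. For Nrp1-IP over Input 0 of the 2 were called by edgeR, 1 had an unadjusted p under 0.05 and 1 was called by DESeq2. Reads of ZFX that match a near-identical copy equally well would have been counted on neither gene, so its counts are uncertain to that extent. The strand setting of the counting is not given in the sources used here, but ZFX-AS1, which overlaps ZFX, had 0 counts in all 9 libraries, and RNU6-615P, within LIN54, had at most 1 count.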

How the data were processed

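RNA-seq libraries of SH-SY5Y cells were grouped by pulldown as the labels give it, with 3 each of DCC-IP, Nrp1-IP and Input. Raw counts for 42785 genes were deposited by the authors, whose processing notes name HISAT2 2.1.0, HTSeq 0.11.0 and hg19. The annotation and strand setting are not given in the sources used here. The 5 HTSeq summary lines were left out, and gene counts were 29.2 to 31.3% of all reads listed. No replicate pair agreed within sampling noise (chi-square per degree of freedom 48.6 to 232), so none was counted as 1 library deposited again.

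Each comparison was fitted over all genes in edgeR 4.0.16 (R 4.3.3) on its 6 libraries, with filterByExpr (minimum count 10), TMM, glmQLFit and glmQLFTest, and a gene was called at an adjusted p (Benjamini-Hochberg) under 0.05. The SE is the log2 fold change divided by the square root of F. Levels are CPM with TMM over 9 libraries, and correlations used log2 CPM with a prior count of 2. Alternatives covered scaling, MAP1B, filters, DESeq2 1.42.0, a 9-library fit, the replicate block and each library left out.

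Pairing was checked by the correlation of deviations from group means between libraries of the same number. In DCC-IP and Input it was 0.117 to 0.421, and -0.31 to 0.136 for libraries of different number, so the ranges overlap. In Nrp1-IP and Input it was -0.00436 to 0.365 against -0.37 to 0.168, which overlap as well. Between the pulldowns it was 0.0989 to 0.361 against -0.208 to 0.0986, which lie just apart. These values do not settle whether the numbers pair the libraries. The main fits left the number out, and the replicate block was run as an alternative.

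SBNO1, ZFX and LIN54 and the gene lists were chosen with earlier results of these data known. Named genes are these 3, MAP1B, the 3 genes most like each, list genes called in either comparison with Input, and paralogs. RBBP4, TOP2A, the markers and the overlapping genes were named outside this rule. ZFY is not reported here. Promoter windows and names came from RefSeq (GRCh38.p14). Figures were drawn with matplotlib 3.10.9.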

Additional observations from a re-analysis of the deposited data

How the results depend on the processing

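No log2 fold change over Input of SBNO1, ZFX or LIN54 changed sign under any alternative run. ZFX in DCC-IP over Input kept its call under all alternatives that used every library, and SBNO1 and LIN54 did not. SBNO1 missed the threshold with RLE factors (1.33), TMM without MAP1B (1.70) and DESeq2 (1.33, adjusted p = 0.115), and LIN54 with RLE factors (2.30) and TMM without MAP1B (2.63). LIN54 in Nrp1-IP over Input passed with DESeq2 (-1.58), no filter (-1.53) and 10 counts in every library (-1.39). Between the pulldowns, library size without MAP1B gave 2.70 for SBNO1, 3.84 for ZFX and 4.55 for LIN54.

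Without 1 library each, DCC-IP over Input ran from 1.09 to 1.95 for SBNO1, 2.29 to 2.81 for ZFX and 2.13 to 3.01 for LIN54. Nrp1-IP over Input ran from -0.90 to -0.42, -0.82 to -0.37 and -1.70 to -1.09, and DCC-IP over Nrp1-IP from 1.668 to 2.005, 2.76 to 3.12 and 3.14 to 4.11, in the same order. Genes called in DCC-IP over Input ranged from 0 to 139 higher and 0 to 214 lower, and in Nrp1-IP over Input from 0 to 111 higher and 0 to 330 lower. Of 310 called in total in DCC-IP over Input, edgeR called 0 without DCC-IP replicate 1, 1 without DCC-IP replicate 2, 31 without Input replicate 1 and 96 without Input replicate 2. Of 323 in Nrp1-IP over Input, it called 0, 7 and 7 without Nrp1-IP replicates 1, 2 and 3, and 77 and 162 without Input replicates 1 and 2.

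Counts of called genes moved by over 1.5 times under many settings, and the cause was not tested. The 91 genes called higher in DCC-IP over Input became 44 with RLE factors, 142 with library size, 622 with library size without MAP1B, 26 with TMM without MAP1B, 508 with DESeq2, 233 with no filter, 468 with 10 counts in every library and 285 with all 9 libraries. The 219 called lower became 74 with library size without MAP1B, 47 with TMM without MAP1B, 524 with DESeq2, 337 with 10 counts in every library and 495 with all 9 libraries. The 126 called higher in Nrp1-IP over Input became 352 with library size, 353 without MAP1B in it, 377 with DESeq2, 238 with no filter, 276 with 10 counts in every library and 22 with all 9 libraries. The 197 called lower became 589 with DESeq2, 644 with no filter, 356 with 10 counts in every library and 103 with all 9 libraries.

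With the replicate block, the log2 fold changes in DCC-IP over Input were 1.43 for SBNO1, 2.49 for ZFX and 2.34 for LIN54, and 238 genes were called higher and 477 lower. In Nrp1-IP over Input the replicate block called 239 higher and 317 lower and gave -0.45, -0.49 and -1.28 with adjusted p = 0.33, 0.3 and 0.0647 (edgeR). It changed no call of these 3 genes in either comparison. Depth did not limit SBNO1, ZFX and LIN54, which had at least 597 counts in every library, but scarce genes named beside them rest on few counts.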
